A study of Mus musculus with 6 samples.

Results

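The 39 genes described here encode the enzymes, regulators and transporters of glycolysis, pyruvate and lactate handling and the pentose phosphate pathway, with the isoforms of each step kept apart. They were chosen by name from their known roles, with earlier results of these data known. All were found among the 55487 gene identifiers of the deposited table. Bulk RNA-sequencing had been performed on primary cells isolated with CD31 beads from the skin of C57BL/6 mice aged 2 to 3 months, with tissue of 4 to 6 mice used for an isolation. Cells were kept for 48 hours in medium with 5 mmol/L glucose (normal glucose, 3 samples) or 20 mmol/L glucose (high glucose, 3 samples), the latter modelling the hyperglycemia of diabetes. No genetic change or other agent is given for either group. The study states its n per group of mice, while the labels tie no sample to an isolation of its own, so that P values measure the spread between these samples, which may in part be technical. The question put to these genes was which steps and which isoforms differed between the glucose concentrations.

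Glycolysis splits glucose into pyruvate in the cytosol, and its pace is set mainly by hexokinase, phosphofructokinase and pyruvate kinase. Pyruvate is then either reduced to lactate and exported or taken into mitochondria. There the pyruvate dehydrogenase complex, which pyruvate dehydrogenase kinases switch off, oxidises it. The pentose phosphate pathway branches off after hexokinase, where its oxidative arm makes NADPH and its non-oxidative arm exchanges sugars between ribose synthesis and glycolysis. Endothelial cells are known to draw most of their ATP from glycolysis.

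Total counts ran from 120192466 to 146881356 per library. Values are given as normalized CPM, which are counts scaled to a common library total with TMM factors, or per kb of exon where levels of different genes are set side by side. A floor of 3 counts corresponded to 0.0211 to 0.0258 normalized CPM. The biological coefficient of variation between samples of a group was 8.44%. The endothelial label was not borne out by its markers as a set. Pecam1, which encodes CD31, was at 0.128 ± 0.0378 CPM under normal glucose and 0.103 ± 0.0359 under high glucose (SD, n = 3). Cldn5, Tie1 and Emcn lay near the floor. Means under normal and high glucose were 11.1 and 9.44 CPM for Egfl7, 5.0 and 5.5 for Kdr, 1.80 and 0.88 for Cdh5 and 1.29 and 2.04 for Tek. Eng made up most of the summed level of the 12 endothelial genes (163 to 187 CPM under normal glucose, 156 to 161 under high glucose). Of 9 tested, 2 were called lower, Cdh5 and Egfl7, and 2 higher, Tek and Erg. Of all tested genes, 14.5% were called lower and 16.9% higher. Erg had 5, 8 and 2 counts under normal glucose and 14, 15 and 12 under high glucose. Only the latter reached the 10 counts of the filter. The call of Erg was lost with a replicate block (edgeR's adjusted P = 0.0576) and held in 1 of 6 fits leaving out a sample. That of Egfl7 was lost with the block (0.0666) and held in 2 of 6. The 8 fibroblast markers together held 38270 to 41450 CPM under normal glucose and 70180 to 75100 under high glucose, with 6 of 8 called higher and 1, Thy1, called lower. The 6 mural cell markers held 376 to 410 and then 317 to 333 CPM, mostly Acta2, with 2 of 5 tested called in each direction. Among the remaining marker lists, adipocyte markers summed to 206 to 282 CPM (2 of 3 tested called higher). Those of neurons or Schwann cells summed to 22.6 to 28.5 (3 of 5 lower) and those of macrophages to 5.72 to 9.43 (2 of 3 lower). Of these 2, Cd68 was not called with the replicate block (edgeR's adjusted P = 0.0903) and held in 2 of 6 fits leaving out a sample. Skeletal muscle markers summed to 2.14 to 6.99 (3 of 3 lower, Myog and Myod1 at 0) and keratinocyte markers to 2.09 to 2.91 (1 of 2 higher). The keratinocyte gene called was Krt5, with 2 counts in each normal glucose sample and 23, 12 and 14 under high glucose. Only its high glucose samples reached the filter's 10 counts. Krt10, at 2.32 and 2.01 CPM, made up most of that sum and was not called. The 5 erythroid markers summed to at most 0.128 CPM, with Hbb-bs and Hbb-bt at 0. In bulk RNA, fewer cells of a type and less RNA per cell cannot be told apart, and the part of these markers in the results below was not tested.

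High glucose medium was accompanied by lower transcript levels along nearly the whole glycolytic chain, while 3 genes around it were higher. Of the 39 genes, 38 passed the filter on low counts, and Hk3 did not, with 5 counts in all 6 samples together. Of these 38, 19 fell (50%), by 16.2% to 36.3%, where 14.5% of all 19015 tested genes were called lower. The 3 that rose (7.89%) gained 24.1% to 32.0%, where 16.9% of all tested genes were called higher. They were Pfkfb3, Pdk2 and Slc16a1. The remaining 16 genes were not called and had log2 fold changes between -0.17 and 0.16. Calls were made with edgeR's quasi-likelihood test at an adjusted P value under 0.05, and 57.9% of the 38 genes were called in either direction against 31.4% of all tested genes. The normalized CPM of the groups did not overlap for 27 of the 38 (71.1%), against 46.4% of all tested genes. The median log2 fold change was -0.21 over the 38 genes and 0.01 over all tested genes. Scaling by library size alone moved the latter median to -0.11 and gave 28 lower and 3 higher members, the 19 and the 3 among them, where 25.7% and 9.57% of all tested genes were then called lower and higher.

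By branch, most calls fell to glycolysis itself. In glycolysis from hexokinase to pyruvate kinase, 15 of 18 tested genes fell in edgeR's test, all 18 log2 fold changes were below zero, and their median log2 fold change was -0.47. The 3 of them not called were Pfkm, Eno2 and Eno3. Among the 9 lactate and pyruvate genes 3 fell and 2 rose, with a median of -0.09. Of the 4 PFKFB regulators Pfkfb3 rose and the others were not called. None of the 3 oxidative pentose phosphate genes was called, with a median of -0.15 and unadjusted P values of 0.020 to 0.026, although all 3 were called lower by DESeq2 (adjusted P = 0.0279 to 0.046), under library size scaling and when trends on GC content and length were removed. Among the 4 non-oxidative genes only Taldo1 fell. All 39 genes together held 1.56% ± 0.063 of the counts under normal glucose and 1.12% ± 0.022 under high glucose (SD, n = 3, exact permutation P = 0.1, the smallest that 3 samples against 3 allow).

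**Figure D1:**
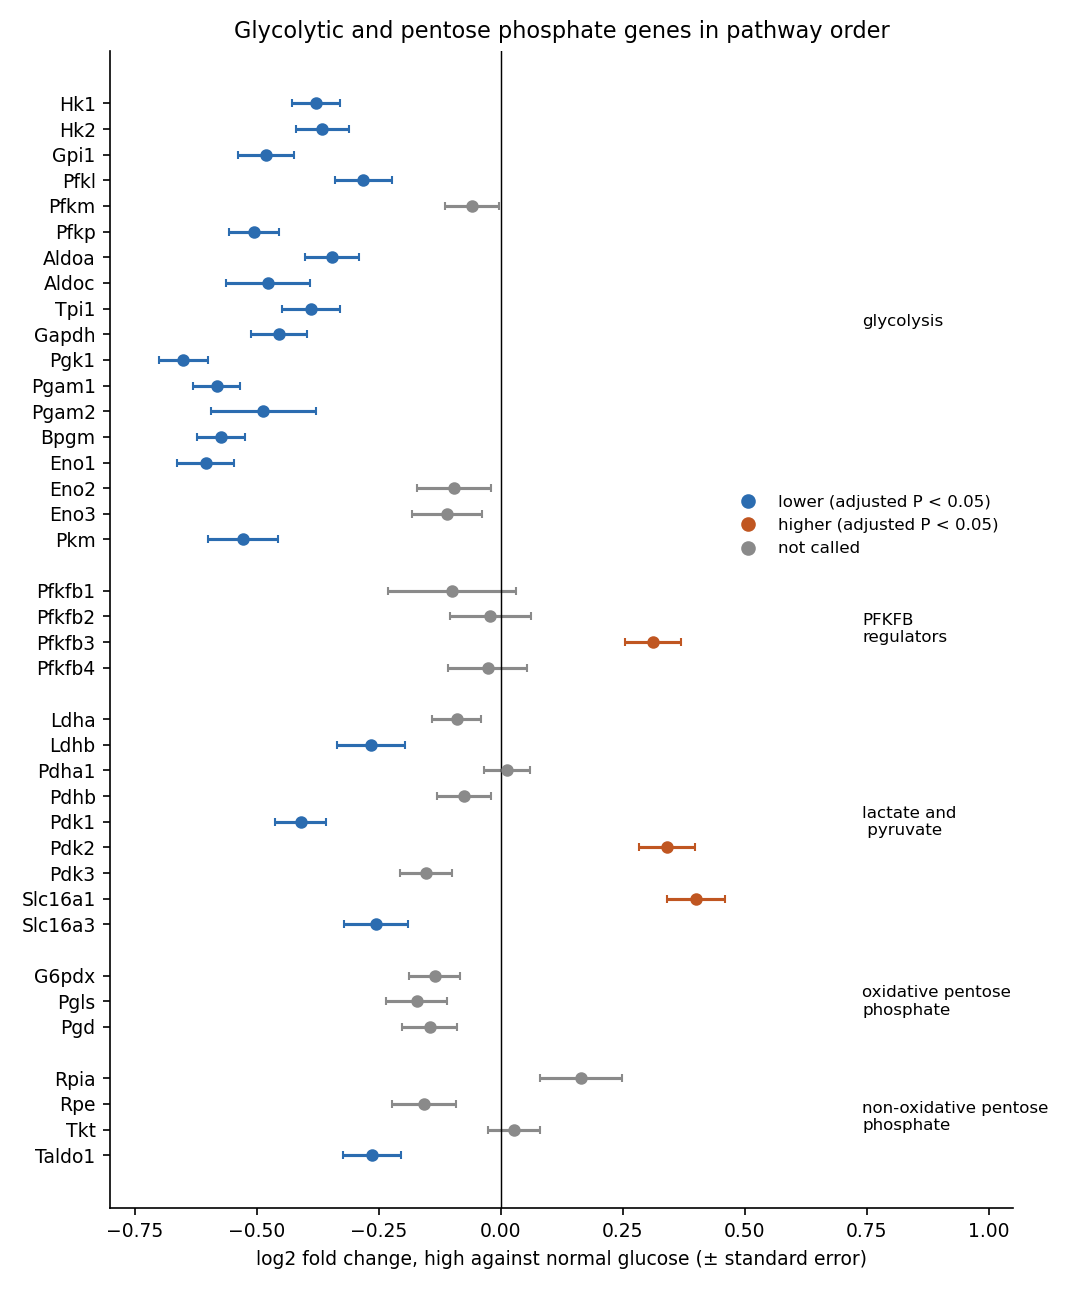
Log2 fold change of each of the 38 tested genes in high against normal glucose, in pathway order, with the standard error from edgeR's fit (x axis, log2 units; blue, called lower; orange, called higher; grey, not called). The glycolytic genes lie left of zero, from -0.65 for Pgk1 to -0.06 for Pfkm, and the 3 genes called higher are Pfkfb3, Pdk2 and Slc16a1, at 0.31 to 0.40.

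Promoter sequences of 5 of these genes are printed because they set the 3 genes that rose beside Pgk1, which had the largest fall, and Ldha, which was not called. Each is the stretch of 250 bases just before a RefSeq transcription start (build GRCm38.p6), read along the gene's strand. Capitals mark ACGTG or GCGTG on either strand, the core recognised by hypoxia-inducible factors, and CACGTG, the E-box form, which contains ACGTG and is bound by MYC and related factors. These motifs were chosen with the results known, and a match is a description of letters only. For Pfkfb3, Pdk2 and Ldha the window printed is the one that holds CACGTG. The window of their other annotated start, which lacks it, is not printed.
Pfkfb3 (chr2:11502091-11502340, minus strand): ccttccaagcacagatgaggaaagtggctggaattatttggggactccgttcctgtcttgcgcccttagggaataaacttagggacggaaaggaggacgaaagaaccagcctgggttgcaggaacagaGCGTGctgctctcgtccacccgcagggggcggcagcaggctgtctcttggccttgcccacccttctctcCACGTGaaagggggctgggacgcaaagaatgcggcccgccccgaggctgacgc
Pdk2 (chr11:95041372-95041621, minus strand): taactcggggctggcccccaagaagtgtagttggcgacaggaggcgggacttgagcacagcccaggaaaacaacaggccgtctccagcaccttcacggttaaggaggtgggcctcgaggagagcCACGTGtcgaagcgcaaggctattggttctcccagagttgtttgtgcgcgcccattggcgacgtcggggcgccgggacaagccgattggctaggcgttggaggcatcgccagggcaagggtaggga
Slc16a1 (chr3:104638414-104638663, plus strand): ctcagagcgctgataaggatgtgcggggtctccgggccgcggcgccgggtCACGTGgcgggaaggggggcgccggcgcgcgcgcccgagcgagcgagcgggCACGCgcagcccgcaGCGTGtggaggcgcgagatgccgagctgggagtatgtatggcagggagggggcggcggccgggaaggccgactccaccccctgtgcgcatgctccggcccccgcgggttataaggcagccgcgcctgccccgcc
Pgk1 (chrX:106186850-106187099, plus strand): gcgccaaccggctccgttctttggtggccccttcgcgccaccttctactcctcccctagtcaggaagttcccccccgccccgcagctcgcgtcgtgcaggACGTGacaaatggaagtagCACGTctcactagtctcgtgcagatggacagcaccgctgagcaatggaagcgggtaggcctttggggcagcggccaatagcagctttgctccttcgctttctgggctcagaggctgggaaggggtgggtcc
Ldha (chr7:46845554-46845803, plus strand): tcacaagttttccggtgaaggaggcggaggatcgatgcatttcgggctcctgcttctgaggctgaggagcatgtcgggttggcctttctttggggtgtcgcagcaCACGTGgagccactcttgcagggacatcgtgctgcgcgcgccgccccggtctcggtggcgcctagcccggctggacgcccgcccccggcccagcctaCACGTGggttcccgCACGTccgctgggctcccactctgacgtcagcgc

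CACGTG lay in a window of each of the 3 genes that rose, Pfkfb3, Pdk2 and Slc16a1. It lay in none of the 27 windows of the 19 genes that fell, and in windows of 3 of the 16 genes not called, Ldha, Pfkm and Pfkfb2. For comparison, 6.02% of all 32851 windows of this length held it, and 7.8% of the 15740 windows of tested genes, while 9.34% of the tested genes with windows held it in at least 1. The shorter core, ACGTG or GCGTG on either strand, lay in 70.4% of the windows of the genes that fell and 72.9% of all 59 windows of the 39 genes, against 52.5% of the windows of tested genes and 38.6% of all windows. Several of these genes have more than 1 annotated start, and CACGTG lay in 1 of 2 windows for Pfkfb3, Pdk2 and Ldha.

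Both detected hexokinases, which phosphorylate glucose on entry, fell together and kept their proportions. Hk1, the widely expressed isoform, had 185, 176 and 187 normalized CPM under normal glucose and 141, 139 and 141 under high glucose. Hk2, the inducible isoform, had 47.0, 44.9 and 45.8 CPM under normal glucose against 37.3, 33.9 and 35.8 under high glucose. For both genes every high glucose sample lay below every normal glucose sample, with log2 fold changes of -0.38 ± 0.049 for Hk1 (SE; edgeR's adjusted P = 2.26e-04) and -0.37 ± 0.054 for Hk2 (adjusted P = 5.75e-04). Hk3 had at most 3 counts in any sample. As a share of length-divided hexokinase reads, Hk1 stood at 73.6% ± 0.42 under normal glucose and 73.4% ± 0.79 under high glucose (SD, n = 3), and the groups overlapped (exact permutation P = 1). Gpi1, which isomerises glucose-6-phosphate, fell from 560, 519 and 563 CPM to 398, 371 and 407, a log2 fold change of -0.48 ± 0.058 (adjusted P = 1.35e-04).

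Of the 3 phosphofructokinase 1 isoforms, whose subunits assemble into the enzyme of the committed step, Pfkp and Pfkl fell and Pfkm was not called. Pfkp, the platelet isoform, went from 75.5, 76.3 and 78.9 CPM to 55.9, 52.3 and 54.3. Pfkl, the liver isoform, went from 395, 367 and 413 CPM to 335, 312 and 319. Pfkm, the muscle isoform, had 85.0, 77.4 and 86.0 CPM under normal glucose and 80.7, 78.0 and 79.8 under high glucose, so that its groups overlapped while those of the other isoforms did not. The log2 fold changes were -0.51 ± 0.051 for Pfkp (edgeR's adjusted P = 3.92e-05), -0.28 ± 0.059 for Pfkl (0.00459) and -0.06 ± 0.056 for Pfkm (0.463). Within each library, where scaling plays no role, the log2 ratio of Pfkm to Pfkl was -1.24 ± 0.023 under normal glucose and -1.02 ± 0.031 under high glucose, and that of Pfkp to Pfkm was -2.11 ± 0.076 and -2.56 ± 0.023 (SD, n = 3, length-divided). Neither ratio overlapped between the groups (exact permutation P = 0.1 each, 0.12 after Benjamini-Hochberg adjustment over 18 such ratios). Pfkp shares 748 exonic bases with Pitrm1 on the opposite strand, and reads there could not be told apart without strand.

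The PFKFB enzymes make and degrade fructose-2,6-bisphosphate, the strongest activator of phosphofructokinase 1. Pfkfb3, the isoform with the highest kinase activity relative to its phosphatase activity and a known driver of vessel sprouting, stood against the rest of the chain. It had 95.3, 107 and 105 CPM under normal glucose and 129, 124 and 129 under high glucose, a rise of 0.31 ± 0.057 on the log2 scale (edgeR's adjusted P = 0.00222). All 3 high glucose samples lay above the normal glucose samples. Pfkfb2 was at 12.0 ± 1.31 and 11.8 ± 0.133 CPM, Pfkfb4 at 9.04 ± 0.606 and 8.87 ± 0.536, and Pfkfb1 at 1.69 ± 0.170 and 1.58 ± 0.176 (SD, n = 3). None of these was called, with adjusted P values of 0.600 to 0.870, and Pfkfb1 and Pfkfb2 overlap exons of other genes. Pfkfb3 held 77.5% ± 0.59 of the length-divided reads of the family under normal glucose and 81.4% ± 0.42 under high glucose, without overlap between the groups (exact permutation P = 0.1). The log2 ratio of Pfkfb3 to Hk2 within a library was 0.81 ± 0.12 and 1.49 ± 0.042.

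Aldolase and triosephosphate isomerase, which split the hexose and interconvert its products, fell with the chain. Aldoa had 1469, 1358 and 1501 CPM under normal glucose and 1137, 1110 and 1158 under high glucose, a log2 fold change of -0.35 ± 0.055 (edgeR's adjusted P = 8.78e-04). Aldoc, the brain isoform, fell from 11.4, 11.7 and 12.7 CPM to 9.12, 7.60 and 8.92 (-0.48 ± 0.086, adjusted P = 0.00200) and made up 0.731% and then 0.667% of aldolase reads per length, with overlap between the groups. The identifier used for Aldoa is the one that spans the RefSeq gene, and a second identifier with this symbol held 51 to 80 counts per sample. Tpi1 went from 699, 614 and 683 CPM to 494, 515 and 515, and its groups did not overlap either (-0.39 ± 0.060, adjusted P = 7.08e-04).

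The steps from 3-carbon sugars to pyruvate held the largest falls. Pgk1, which makes the first ATP of the pathway, had 994, 977 and 1029 CPM under normal glucose and 634, 656 and 622 under high glucose. The lowest normal glucose sample was thus far above the highest high glucose sample, and the log2 fold change was -0.65 ± 0.050 (edgeR's adjusted P = 6.28e-06), a fall by 36.3%. Pgk1 lies at chrX:106187100-106203699 on the plus strand of GRCm38. Eno1, the ubiquitous enolase, fell from 1897, 1689 and 1834 CPM to 1217, 1144 and 1204 (-0.60 ± 0.058, adjusted P = 3.00e-05). Pgam1, the main phosphoglycerate mutase, fell from 500, 487 and 513 CPM to 333, 337 and 332 (-0.58 ± 0.048, adjusted P = 1.04e-05). Bpgm, which diverts an intermediate to bisphosphoglycerate, had 33.9, 32.5 and 32.4 CPM and then 22.3, 22.1 and 22.0 (-0.57 ± 0.050, adjusted P = 1.42e-05). The enzyme is best known from red blood cells, whose 5 markers summed to at most 0.128 CPM in any sample. The part of such cells in the Bpgm value was not tested.

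Pkm, which yields pyruvate and ATP, was the gene with the most reads among the 39. Its values were 3086, 2539 and 2907 CPM under normal glucose and 2004, 1900 and 2013 under high glucose. Even the lowest normal glucose sample, replicate 2, exceeded the highest high glucose sample, and the log2 fold change was -0.53 ± 0.072 (edgeR's adjusted P = 3.14e-04). The gene table does not separate its splice forms M1 and M2. Gapdh, which oxidises the 3-carbon sugar, fell from 1461, 1483 and 1593 CPM to 1100, 1053 and 1159 (-0.45 ± 0.058, adjusted P = 2.03e-04). Gapdh is widely used as a reference gene for qPCR, and here it differed between the groups by 27.0% with no overlap.

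Reads of Gapdh are shared out over many near-identical sequences, so its level is uncertain. The annotation holds 101 genes, 99 of them pseudogenes, that match a Gapdh transcript at 95% identity or more over 300 bases or more. Together they held 42.4% ± 0.40 of the normalized reads of Gapdh and these genes under normal glucose and 42.2% ± 0.68 under high glucose (SD, n = 3). Of the 73 that were tested, 45 were called lower by edgeR and 70 had log2 fold changes below zero, with a median log2 fold change of -0.46. Among the 45 with a mean of at least 1 CPM, 41 were called lower and all lay between -0.61 and -0.26. Adding their counts to Gapdh gave -0.46 ± 0.055 (adjusted P = 1.3e-04), which differed from the value without them by less than its standard error. Near-identical genes held 11.2% of the corresponding sum for Pgam1, 5.03% for Pgk1, 4.51% for Eno1, which includes Eno1b, and 1.90% for Pkm under normal glucose, and with their reads added 19 members were again called lower and 3 higher.

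**Figure D2:**
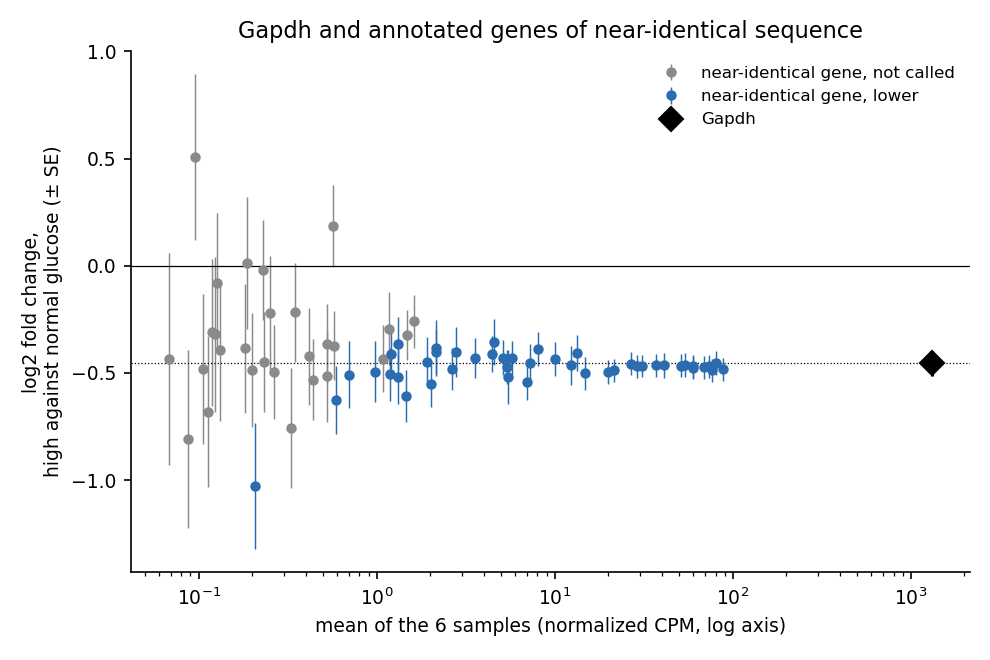
Log2 fold change (y axis, with the standard error) against the mean normalized CPM of the 6 samples (x axis, log scale) for Gapdh (diamond) and 73 annotated genes of near-identical sequence (blue, called lower; grey, not called). From 1 CPM upwards the copies lie between -0.61 and -0.26, around the dotted line drawn at the Gapdh value of -0.45, and below 1 CPM they scatter with large errors.

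The minor isoforms of mutase and enolase are known for muscle and nerve. Pgam2, the muscle mutase, fell from 2.78, 2.82 and 3.28 CPM to 2.24, 2.08 and 2.01, without overlap (-0.49 ± 0.11, edgeR's adjusted P = 0.00660). The 7 skeletal muscle markers summed to 5.72 to 6.99 CPM under normal glucose and 2.14 to 2.37 under high glucose, and the part of such cells in the Pgam2 value was not tested. Eno3, the muscle enolase, had 12.9, 11.4 and 12.5 CPM and then 11.8, 10.9 and 11.5 (-0.11 ± 0.072, adjusted P = 0.274). Eno2, the neuronal enolase, had 26.9, 26.6 and 25.9 CPM under normal glucose and 26.3, 21.6 and 26.3 under high glucose (-0.10 ± 0.076, adjusted P = 0.374). Replicate 2 of high glucose was thus the low sample for Eno2, and both genes overlapped between the groups. Against Eno1 in the same library, the log2 ratio of Eno2 was -5.90 ± 0.088 under normal glucose and -5.40 ± 0.12 under high glucose, and that of Eno3 was -5.57 ± 0.0074 and -5.08 ± 0.017 (SD, n = 3).

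**Figure D3:**
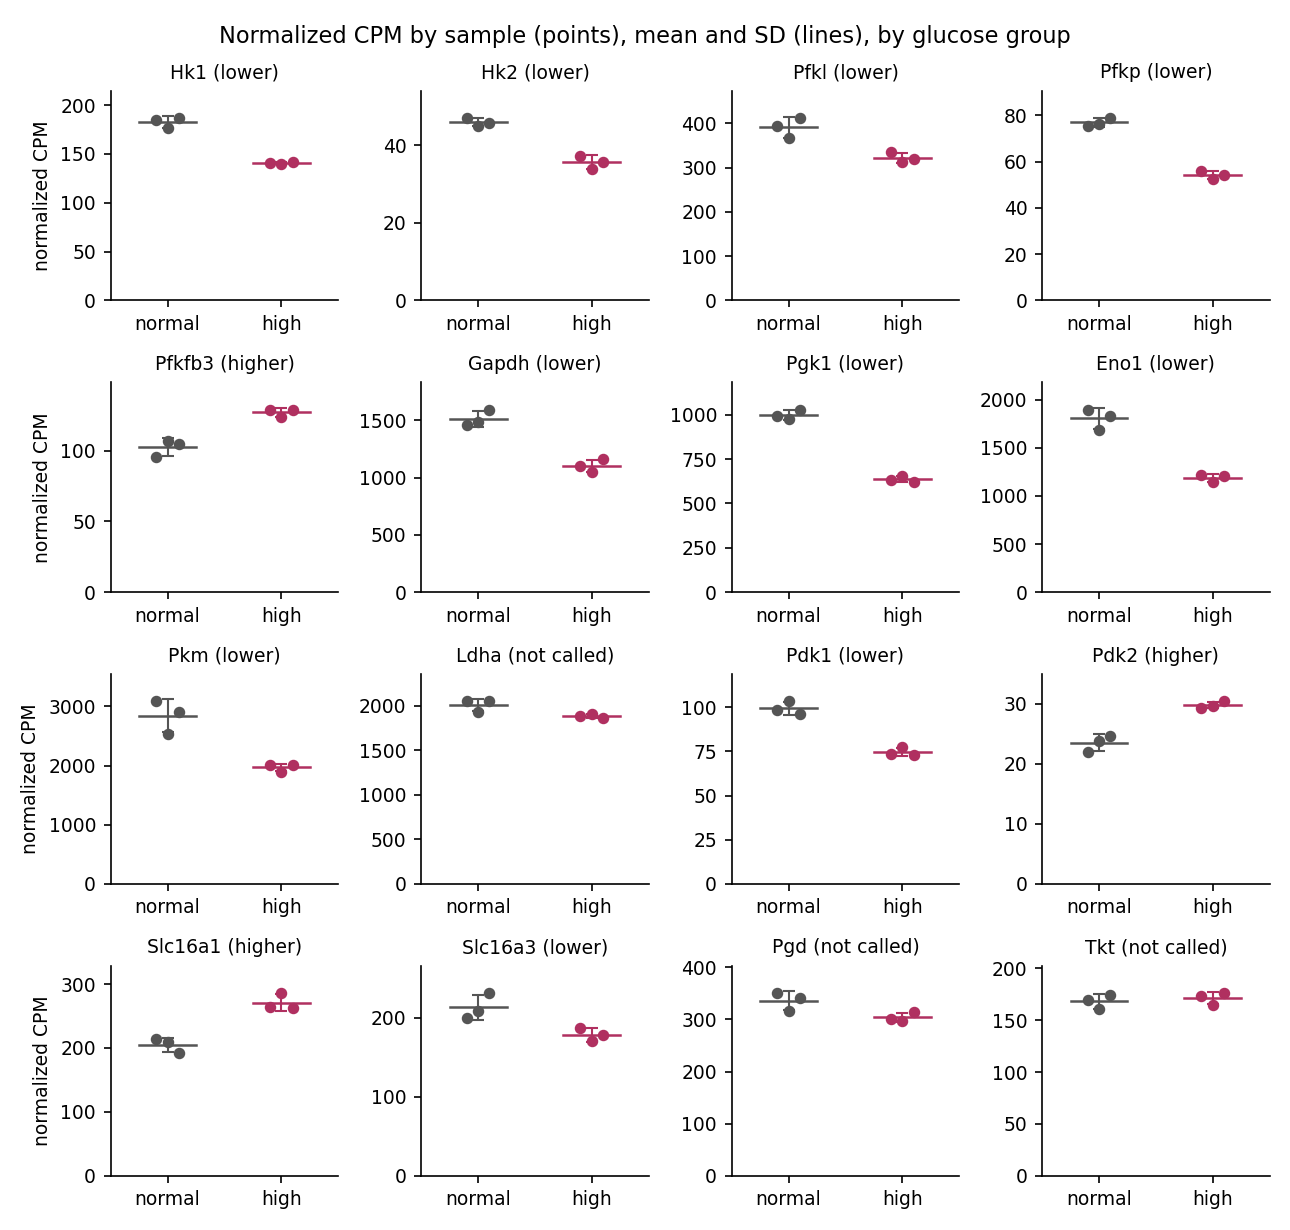
Normalized CPM (y axis, starting at 0) of 16 genes in each of the 3 normal glucose (grey) and 3 high glucose (red) samples, with mean (line) and SD (bars). Points of the groups do not overlap for any of the genes called lower or higher, while Ldha lies at 1928 to 2051 CPM under normal glucose and 1864 to 1910 under high glucose and Tkt overlaps.

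Beyond pyruvate, Ldhb fell and Ldha was not called. Ldha, which reduces pyruvate to lactate, had 2051, 1928 and 2051 CPM under normal glucose and 1889, 1910 and 1864 under high glucose. Its groups lay close together without overlap, and it was not called (-0.09 ± 0.050, edgeR's adjusted P = 0.199). Scaled by library size alone, Ldha was called lower (-0.21, edgeR's adjusted P = 0.00667), where the median of all tested genes was -0.11. Ldhb, the heart-type subunit, had 65.4, 54.4 and 63.7 CPM and then 50.5, 51.0 and 51.1 (-0.27 ± 0.070, adjusted P = 0.0150), a fall that was not called without normal glucose replicate 3 (adjusted P = 0.0506). The log2 ratio of Ldha to Pkm within a library was 0.10 ± 0.096 under normal glucose and 0.53 ± 0.062 under high glucose, and that of Ldha to Pgk1 was 0.45 ± 0.034 and 1.01 ± 0.022 (SD, n = 3, length-divided, exact permutation P = 0.1 each). Relative to Pkm and Pgk1, Ldha thus stood higher in every high glucose sample than in any normal glucose sample.

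The genes of pyruvate dehydrogenase and its kinases were called in both directions or not at all. Pdha1 and Pdhb, subunits of pyruvate dehydrogenase E1, were at 168 ± 1.38 and 61.5 ± 2.62 CPM under normal glucose and 169 ± 3.60 and 58.4 ± 2.21 under high glucose, with adjusted P values of 0.872 and 0.332 in edgeR's test. Pdk1, the hypoxia-inducible kinase that inactivates E1, had 98.4, 103 and 96.2 CPM under normal glucose and 73.7, 77.3 and 73.1 under high glucose. Pdk2, a widely expressed kinase of the same family, had 22.0, 23.9 and 24.7 CPM and then 29.3, 29.7 and 30.4. The groups of both genes were fully apart, in opposite directions, with log2 fold changes of -0.41 ± 0.052 for Pdk1 (adjusted P = 2.07e-04) and 0.34 ± 0.058 for Pdk2 (adjusted P = 0.00132). Pdk3 was at 63.2 ± 1.42 and 56.8 ± 2.67 CPM and narrowly missed the threshold (-0.15 ± 0.054, adjusted P = 0.0519). The log2 ratio of Pdk1 to Pdk2 was 0.86, 0.82 and 0.66 in the normal glucose libraries and 0.03, 0.09 and -0.03 in the high glucose libraries, so that Pdk1 exceeded Pdk2 per length under normal glucose and was close to it under high glucose.

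The monocarboxylate transporters, which carry lactate and pyruvate across the plasma membrane, were called in opposite directions. Slc16a1, which encodes MCT1, rose from 214, 210 and 193 CPM to 265, 286 and 262, the largest rise of the 39 genes (0.40 ± 0.060, edgeR's adjusted P = 5.77e-04). Slc16a3, which encodes MCT4, the low-affinity transporter of strongly glycolytic cells, had 200, 208 and 231 CPM and then 188, 170 and 178 (-0.26 ± 0.066, adjusted P = 0.0143). The fall of Slc16a3 was not called without normal glucose replicate 3 (adjusted P = 0.0523) or without high glucose replicate 2 (adjusted P = 0.0546). Within a library, Slc16a1 held 56.2%, 54.7% and 50.0% of the length-divided reads of the pair under normal glucose and 62.9%, 66.9% and 63.9% under high glucose. The shares did not overlap, and this was the widest shift of any isoform share, by 10.9 percentage points (exact permutation P = 0.1, 0.15 after adjustment over 24 shares).

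In the oxidative arm of the pentose phosphate pathway no gene was called. G6pdx, the entry enzyme and first NADPH source, was at 116 ± 4.12 CPM under normal glucose and 106 ± 3.13 under high glucose (SD, n = 3; -0.14 ± 0.052, edgeR's adjusted P = 0.0730). Pgd, the second NADPH-producing dehydrogenase, was at 336 ± 17.8 and 304 ± 9.18 CPM (-0.15 ± 0.056, adjusted P = 0.0729), and Pgls, the lactonase between them, at 52.5 ± 4.09 and 46.5 ± 0.672 CPM (-0.17 ± 0.063, adjusted P = 0.0601). None of the 3 overlapped between the groups. Under library size scaling they were called lower, at -0.25 to -0.29, where the median of all tested genes was -0.11. Pgls shares 776 exonic bases with Fam129c on its strand, and G6pdx 418 with Ikbkg on the other.

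In the non-oxidative arm only transaldolase was called. Its gene Taldo1, which transfers 3-carbon units, fell from 81.5, 70.8 and 77.8 CPM to 63.3, 64.2 and 64.3, without overlap (-0.26 ± 0.060, edgeR's adjusted P = 0.00713). Tkt, the transketolase that links the arm to glycolysis, was at 168 ± 7.20 and 171 ± 5.82 CPM, with overlapping groups (adjusted P = 0.743). Rpia, which forms ribose-5-phosphate, was at 9.77 ± 0.941 and 10.95 ± 0.570 CPM (0.16 ± 0.085, adjusted P = 0.170). Rpe, the epimerase, was at 41.0 ± 2.80 and 36.8 ± 2.00 CPM (-0.16 ± 0.065, adjusted P = 0.0947) and shares 558 exonic bases with Kansl1l on the other strand. Rpia and Rpe also overlapped between the groups.

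Set side by side per kb of exon, the steps spanned a wide range of levels, and on this scale lactate dehydrogenase was the highest of them. The order depends on the length used, here all annotated exons: 5001 bases for Pkm and 3310 for Ldha, against 2432 and 1815 in the longest transcript. Without division by length Pkm had 2844 ± 279 CPM and Ldha 2010 ± 71.1 under normal glucose, and 1972 ± 62.55 and 1888 ± 22.9 under high glucose. Reads held by near-identical genes of Gapdh are not in these sums. In normal glucose lactate dehydrogenase genes summed to 646 ± 25.2 CPM per kb, pyruvate kinase to 569 ± 55.8, aldolase to 499 ± 26.0 and phosphoglycerate kinase to 445.5 ± 11.7 (SD, n = 3). Pyruvate kinase and aldolase overlapped, and the highest pyruvate kinase sample, at 617, reached the lowest lactate dehydrogenase sample. In high glucose the lactate dehydrogenase sum was 603 ± 6.88 while pyruvate kinase stood at 394 ± 12.5 and aldolase at 393 ± 8.53, so that every lactate dehydrogenase sum lay above every sample of the other steps. Hexokinase, at 29.1 ± 0.818 and 22.5 ± 0.402 CPM per kb, lay below every other glycolytic step but bisphosphoglycerate mutase in both groups, and ribose-5-phosphate isomerase was the lowest step of all, at 1.82 ± 0.176 and 2.04 ± 0.106. Of the 23 steps, the summed levels of 19 did not overlap between the groups, where 46.4% of all tested genes did not overlap singly (exact permutation P = 0.1, adjusted P = 0.121 over the steps), with phosphofructokinase 2 and monocarboxylate transport the only ones of these that stood higher under high glucose.

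**Figure D4:**
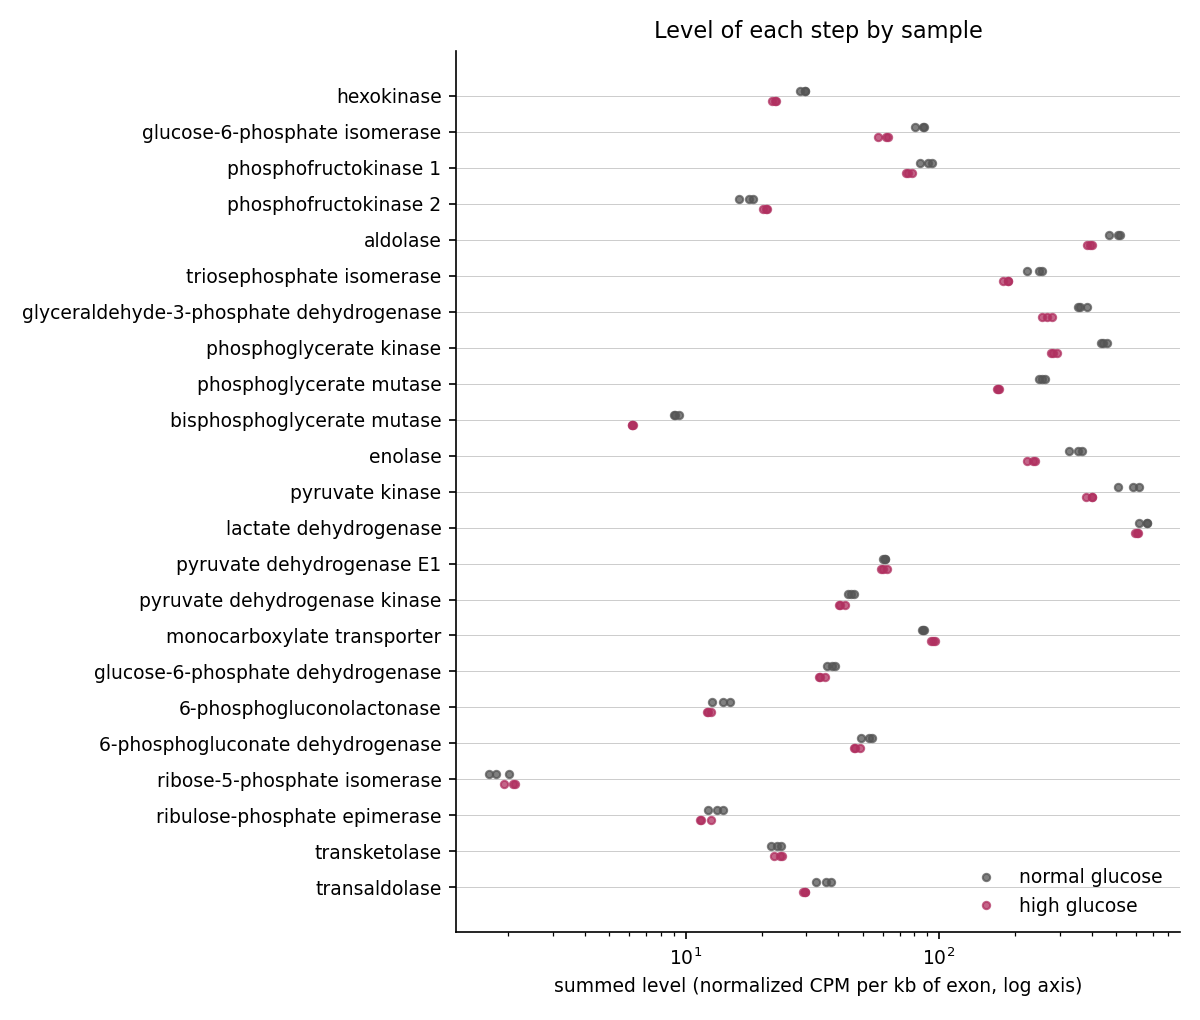
Summed level of the genes of each step in normalized CPM per kb of exon (x axis, log scale) for the 3 normal glucose (grey) and 3 high glucose (red) samples. Steps range from about 2 for ribose-5-phosphate isomerase to 646 ± 25.2 for lactate dehydrogenase under normal glucose, and the red points lie left of the grey ones for most glycolytic steps.

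As shares within a step, which do not depend on scaling between libraries, the isoform make-up differed without overlap for 16 of 24 isoforms, each at the smallest possible exact permutation P of 0.1. Shares of a step sum to 100%, so that in steps of 2 isoforms a single shift counts for both, and 46.4% of all tested genes did not overlap in their own levels. Pdk1 went from 28.4% ± 0.72 to 23.3% ± 0.19 and Pdk2 from 16.6% ± 0.79 to 22.9% ± 0.85 of the kinase reads per length (SD, n = 3). Pdk3 had 55.0% ± 0.20 and 53.8% ± 0.83, but without division by length 34.0% and then 35.2%, the opposite direction, and Pdk1 then had the largest share, with 53.4% and 46.3%. In the phosphofructokinase 1 step Pfkm held 27.8% ± 0.35 and 31.3% ± 0.45, beside Pfkl at 65.8% and 63.4% and Pfkp at 6.45% and 5.31%. Without division by length Pfkl had 71.0% and 70.7% and Pfkm 15.0% and 17.4%. Eno1 held 96.4% ± 0.089 and 94.9% ± 0.19 of enolase reads, and Ldhb 6.02% ± 0.36 and 5.37% ± 0.073 of lactate dehydrogenase reads. Shares of hexokinase, aldolase and mutase isoforms overlapped between the groups.

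**Figure D5:**
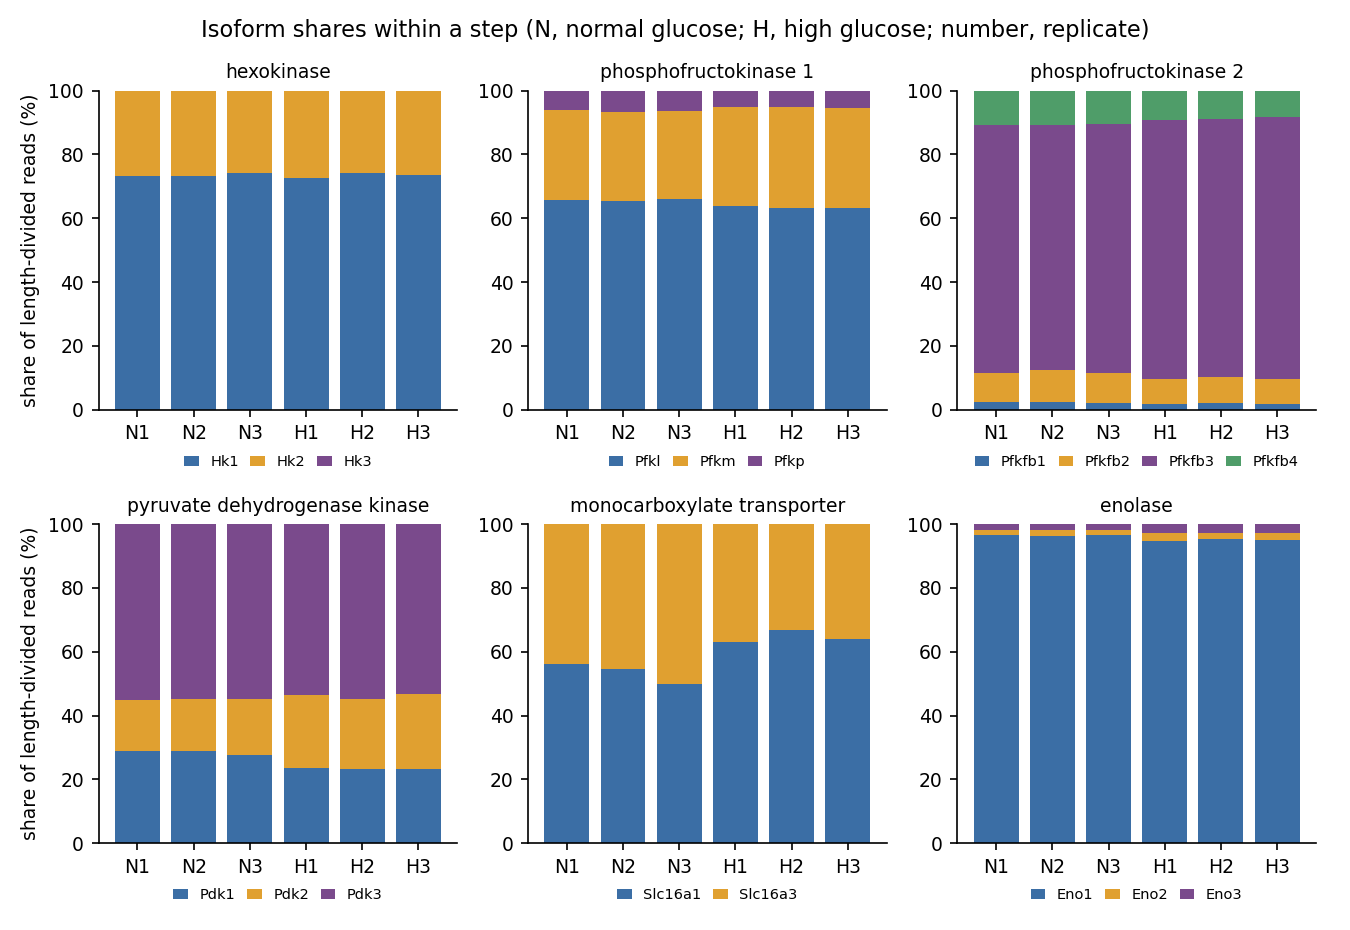
Share of length-divided reads (y axis, percent) of each isoform within 6 steps, for normal glucose samples N1 to N3 and high glucose samples H1 to H3. Hexokinase bars are level, with Hk1 at 73.6% and 73.4% on average, whereas Slc16a1 lies between 50.0% and 56.2% under normal glucose and between 62.9% and 66.9% under high glucose.

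Further genes of the same pathways, listed by role, were called in both directions. Of 42 such genes 33 were tested, and of these 6 fell and 8 rose in edgeR's test. Of all tested genes, 14.5% were called lower and 16.9% higher. Among the 8, Shpk (adjusted P = 0.0467) was called in 0 of 6 fits that left out a sample, and H6pd in 3. Among the 6 that fell, Prps2 was called in 2 of these fits and Pcx in 4. The other calls held in all 6 fits. The median log2 fold change of the 33 was -0.03. Under library size scaling the split was 11 lower and 6 higher. Pgk2, Pklr, Ldhc and Pdha2, isoforms of testis or liver, had no counts in any sample. The largest falls were those of Slc16a4, an orphan transporter of the MCT family, from 5.38 ± 0.796 to 2.99 ± 0.486 CPM (-0.85 ± 0.14, adjusted P = 0.00126), and of Ldhd, the D-lactate dehydrogenase, from 2.22 ± 0.178 to 1.52 ± 0.107 (-0.55 ± 0.12, adjusted P = 0.00466). Galm, Pgm1 and Pcx followed, at -0.31, -0.29 and -0.27. Emb, a chaperone of MCT transporters, rose from 754 ± 12.9 to 1190 ± 59.6 CPM (0.66 ± 0.054, adjusted P = 9.54e-06). Bsg, another such chaperone, was not called, at 787.5 ± 77.4 and 745 ± 24.4 CPM (-0.08 ± 0.071, adjusted P = 0.427). Pdp1, the phosphatase that reactivates pyruvate dehydrogenase, rose from 17.8 ± 1.06 to 27.3 ± 0.882 (0.62 ± 0.060), and Pdpr, its regulatory subunit, from 24.9 ± 6.47 to 37.6 ± 0.344 (0.59 ± 0.15, adjusted P = 0.0134). Slc16a7, which encodes MCT2, rose by 0.62 ± 0.11 and Pdk4, a kinase of fasting, by 0.54 ± 0.073 on the log2 scale. The glucose transporter gene Slc2a1 was not called, at 180 ± 7.06 and 175 ± 5.84 CPM (-0.04 ± 0.053, adjusted P = 0.588).

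Gene lists tied to glucose sensing, growth and oxygen were read beside the glycolytic genes. Txnip and Arrdc4, both induced by glucose, rose by 1.06 ± 0.048 and 0.54 ± 0.052 on the log2 scale (edgeR's adjusted P = 1.7e-07 and 2.96e-05). All 14 proliferation genes fell, with a median log2 fold change of -1.08. For comparison with this list and the next, 14.5% of all tested genes were called lower and 16.9% higher. Of 12 hypoxia-inducible genes outside glycolysis, Bnip3, Egln1, P4ha1, P4ha2 and Car9 fell, Adm and Egln3 rose and 5 were not called, with a median of -0.16 against 0.01 over all tested genes. The call of Car9 (adjusted P = 0.0495) was lost with GC and length trends removed (0.0537) and with the replicate block (0.0789), and held in 1 of 6 fits that left out a sample. The part of proliferation and of the hypoxia response in the values of the glycolytic genes was not tested.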

How the data were processed

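Samples were grouped by their titles. The authors trimmed reads with Trimmomatic, aligned them to GRCm38 (mm10) with HISAT2, obtained read counts per gene with StringTie, and deposited these whole-number counts without normalization. Versions and strandedness are not given in the sources used here. For RNA isolation and sequencing, TRIzol and DNBSeq are named in the labels but a QIAGEN kit and an Illumina HiSeq in the methods. Of 55487 identifiers, 55227 had a symbol, and the other 260 held 0.00694% of the counts and stayed in the fit.

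All 6 samples entered 1 fit with edgeR 4.0.16 (R 4.3.3). Genes passed filterByExpr with at least 10 counts and a total of 15 or more, and TMM factors, the quasi-likelihood test, Benjamini-Hochberg adjustment over 19015 genes and a threshold of 0.05 were used. Standard errors come from the test statistic. Shares, ratios and sums were compared with two-sided exact permutation tests. Gene positions and exon lengths are from GENCODE for GRCm38. The floor of 3 counts covers counting error only.

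All members are accounted for. Of the other pathway genes, the called ones with the 5 largest falls and 5 largest rises were named. Members and lists were chosen with earlier results of these data known. Alternatives were other tests (DESeq2 1.42.0, likelihood ratio, robust fitting), normalizations, filters, thresholds, halved counts, near-identical genes added, GC and length trends removed (mgcv 1.9.3), a replicate block, and each sample left out.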

Additional observations from a re-analysis of the deposited data

How the results depend on the processing

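Over 21 alternatives the lower count lay between 17 and 28 and the higher count between 3 and 4, except that requiring an absolute log2 fold change of at least 0.5 left 6 lower and 0 higher. Leaving out each sample in turn gave 18 to 21 lower and 3 to 4 higher members, and 17 of the 19 lower calls held in all 6 of these fits, Ldhb and Slc16a3 being the exceptions. The deviations of same-numbered samples correlated at -0.065, 0.0405 and 0.0449, so the replicate numbers were not taken to pair the samples. With the replicate block the same 19 lower and 3 higher members were called. Among other pathway genes, 11 were lower under library size scaling and 2 with the fold minimum, and 5 were higher without a filter or at an adjusted P value under 0.01.

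Some members near zero changed sign. When a sample was left out, Pfkfb2 ranged from -0.121 to 0.0415 and Pfkfb4 from -0.0959 to 0.0112, with the positive values without normal glucose replicate 2. Pdha1 was at -0.0307 with upper quartile scaling, -0.103 with library size scaling, -0.0081 without a filter, -0.0054 with a minimum of 1 CPM, -0.0073 with halved counts, and -0.0187 to 0.0087 over the samples left out. Tkt was at -0.0158 with upper quartile scaling, -0.0875 with library size scaling and -0.0166 to 0.0456 when a sample was left out. Of 24 isoform shares, 12 moved by less than the spread between replicates in every alternative and the others by more in at least 1. The causes of these shifts were not tested. Depth limits Hk3, Pfkfb1 and Pgam2 most, which had the fewest counts of the 39 genes.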
